A study of Mus musculus with 59 samples.

Results

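Spleens of B6C3F1 mice given 5 daily doses of baclofen (8 arrays) were compared with spleens of mice given 1 dose (4 arrays), which makes 12 of the 59 arrays of the series. The arrays were chosen by their titles, as spleen, baclofen and 5 day or 1 day. Mice of the vehicle groups received 0.5% methylcellulose, 5 daily doses for vehicle 5 day (4 arrays) and 1 dose for vehicle 1 day (4 arrays), and their change between the same times is the background for the comparison. B6C3F1 is a hybrid mouse strain. All groups, baclofen included, share strain, organ, 0.5% methylcellulose and collection 2 h after the last dose from part of a spleen cross-section. Baclofen, a muscle relaxant, activates the GABA-B receptor. The sources used here do not state the baclofen dose, the age of the animals or whether each replicate number is a separate animal, so p-values measure only the spread between these samples. The comparison asks which spleen transcripts differed after repeated dosing from their level after the first dose.

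The spleen filters blood in its red pulp, holds B and T cells in its white pulp and, in mice, makes red cells. The circadian clock is a feedback loop of transcription factors that sets daily rhythms in most tissues, the spleen included. Arrdc3 encodes an alpha-arrestin that links receptors to ubiquitin ligases, Cirbp encodes an RNA-binding protein induced by mild cold, and Per3 encodes a period protein of the circadian clock. PAR bZIP factors, encoded by Dbp, Tef and Hlf, bind the D-box, an element found in clock output genes and in Per3.

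Among genes past the threshold, the promoters of the 2 with the largest falls and of the 1 with the largest rise are shown, picked only by the size of their difference. Each is the RefSeq window of GRCm38.p6 from 250 bases before to 50 bases after a listed start, 5′ to 3′ on the gene's strand, with motif matches in capitals. Motifs were searched on both strands as the E-box CACGTG, the CCAAT box CCAAT, the cAMP response element TGACGTCA, the FoxO site TGTTTAC and the D-box TTATGTAA. Windows for Per3 (chr4:151044616-151044915, minus strand), Arrdc3 (chr13:80883134-80883433, plus strand) and Cirbp (chr10:80167589-80167888, plus strand) read as follows. The start used lies at the annotated 5′ end of Arrdc3, 42 bases inside that of Per3 and 1849 bases inside that of Cirbp, whose gene record begins further upstream.
Per3: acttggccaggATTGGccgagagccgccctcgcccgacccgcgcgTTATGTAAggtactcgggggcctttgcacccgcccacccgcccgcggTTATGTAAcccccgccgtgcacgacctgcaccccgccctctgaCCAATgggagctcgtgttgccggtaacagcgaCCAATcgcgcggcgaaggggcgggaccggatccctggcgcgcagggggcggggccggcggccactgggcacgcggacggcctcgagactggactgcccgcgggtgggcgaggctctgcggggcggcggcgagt
Arrdc3: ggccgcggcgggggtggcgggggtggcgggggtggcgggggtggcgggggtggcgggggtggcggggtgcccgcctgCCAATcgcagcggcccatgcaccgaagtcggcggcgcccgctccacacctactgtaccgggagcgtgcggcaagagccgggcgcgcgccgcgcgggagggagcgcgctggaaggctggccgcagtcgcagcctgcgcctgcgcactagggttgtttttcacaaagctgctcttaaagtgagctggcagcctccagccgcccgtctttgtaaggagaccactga
Cirbp: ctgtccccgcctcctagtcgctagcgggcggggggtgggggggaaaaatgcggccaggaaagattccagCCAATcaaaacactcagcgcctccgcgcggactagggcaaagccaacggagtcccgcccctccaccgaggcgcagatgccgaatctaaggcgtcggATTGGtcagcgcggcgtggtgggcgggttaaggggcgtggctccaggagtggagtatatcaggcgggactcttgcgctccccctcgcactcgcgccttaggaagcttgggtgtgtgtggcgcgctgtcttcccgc

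The Per3 window held 2 D-box and 3 CCAAT matches, the Arrdc3 window 1 CCAAT match and the Cirbp window 2 CCAAT matches. A window was found for 22 of the 27 genes that rose and for 25 of the 30 that fell. The D-box stood in 0.958% of all 27025 promoter windows, in 2 of the 22 windows of genes that rose, those of Per3 and Irf2bp1, and in 0 of the 25 windows of genes that fell. CCAAT was found in 38% of all windows, in 4 of those 22 and in 11 of those 25. The E-box stood in 7.24% of all windows, in 1 of those 22 and in 4 of those 25, and the cAMP response element (1.85% of all windows) and the FoxO site (3.52%) in none of either. A match describes the letters of the window and shows no binding.

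Some libraries stood apart. Averaged over 17 hepatocyte genes, log2 intensity reached 9.41 for replicate 5 of baclofen 5 day. The rest of that group lay at 4.88 to 5.64, and baclofen 1 day at 4.83 to 5.05. It was 9.53 in vehicle 5 day replicate 3, 7.14 in replicate 1 and 6.03 in replicate 4, and vehicle 1 day lay at 4.89 to 4.94. Replicates 1 and 3 of vehicle 5 day are counted below with replicate 5 of baclofen 5 day as libraries that carry liver transcripts. Replicate 4 of vehicle 5 day is not, and it stayed in the fit without them. Alb, the gene of serum albumin, stood at 11.85 in that replicate of baclofen 5 day, and at 6.63 or below in the rest of the group. Correlation across genes, which are not independent replicates, had its lowest value within baclofen 5 day, 0.9465, between replicates 7 and 8, and its lowest within vehicle 1 day was 0.927, between replicates 1 and 3. Vehicle 1 day replicate 1 had the lowest median correlation with the other spleen arrays, 0.9374. It also had the highest erythroid list mean of the spleen arrays, 11.28, and the lowest mature B cell list mean, 10.40. It is part of the vehicle background given below. The mature B cell list lay at 11.27 ± 0.12 in baclofen 5 day and 11.25 ± 0.05 in baclofen 1 day (SD, n = 8 and 4). The 16 pancreas acinar genes lay at 5.35 to 5.51 in baclofen 5 day and 5.28 to 5.40 in baclofen 1 day.

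After 5 doses 57 of 10916 tested genes differed from 1 dose (0.522%), with 27 higher (0.247%) and 30 lower (0.275%), by limma on log2 intensities with Benjamini-Hochberg adjusted p under 0.05. The differences were small. Their median size was 0.37 on the log2 scale, 13 genes moved over 1.5-fold and 1 gene, Arrdc3, over 2-fold. For 40 of the 57 the baclofen 5 day and baclofen 1 day libraries did not overlap, as was so for 2.48% of all genes tested. At an unadjusted p under 0.05, 1618 genes passed (14.8%). The split of higher to lower genes was 88 to 49 after quantile normalization and 14 to 28 after centring each array on its median.

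The number of calls changed with most of the libraries left out. Without the 3 libraries that carry liver transcripts, limma called 0 genes (1606 at unadjusted p under 0.05), and 0 of the 57 genes changed sign. Of these libraries only baclofen 5 day replicate 5 enters the baclofen difference. The 40 called genes without overlap could not change sign, so the unchanged signs are no independent support. In a limma fit of the 12 baclofen arrays alone it called 0 (2144 unadjusted). Leaving out baclofen 5 day replicates 1, 2, 3, 4, 5, 6, 7 and 8 in turn gave 26, 19, 12, 24, 21, 78, 189 and 28 genes. Leaving out baclofen 1 day replicates 1, 2, 3 and 4 in turn gave 1, 2, 202 and 6. The vehicle libraries, which share the estimate of spread, mattered too: without vehicle 5 day replicates 3 and 4 the counts were 31 and 30, and without vehicle 1 day replicates 2 and 4 they were 23 and 24. The difference between 3 prime and 5 prime control probe sets, a sign of RNA quality, was 0.28 to 0.55 in baclofen 5 day and 0.34 to 0.39 in baclofen 1 day, and 14 genes passed with it as a covariate. It was highest in baclofen 5 day replicates 8 (0.55) and 6 (0.53). Each of the 29 genes past the threshold that the naming rule picked lost its call in 1 to 11 of the 12 fits that left out 1 baclofen library. Without the liver-carrying libraries these 29 genes had adjusted p between 0.0615 and 0.0971.

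**Figure D1:**
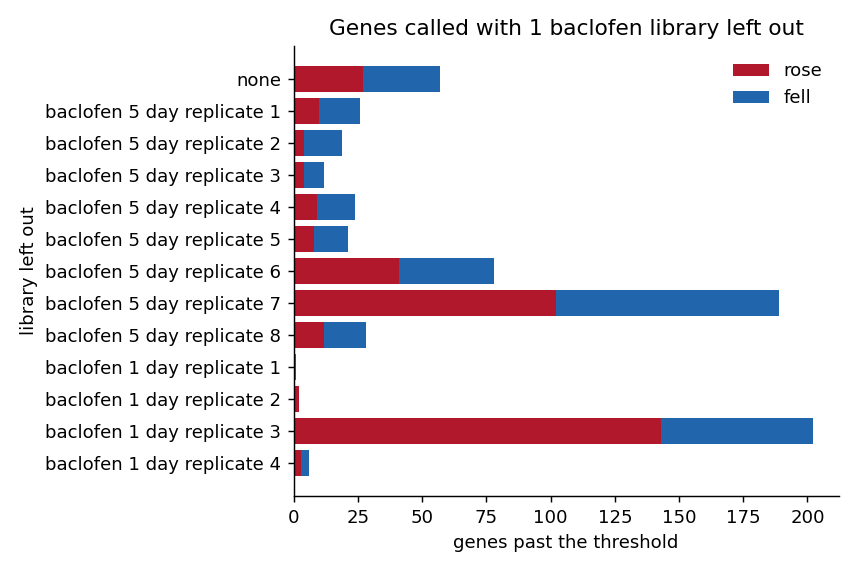
Number of genes past the threshold in baclofen 5 day minus baclofen 1 day (x axis) with no library or 1 baclofen library left out (y axis), split into genes that rose and fell. The count was 57 with all libraries, 202 without baclofen 1 day replicate 3 and 1 without baclofen 1 day replicate 1.

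Among genes past the threshold, the largest fall was that of Arrdc3 (NCBI Gene 105171, GRCm38.p6 chromosome 13, 80883384 to 80896042). Its log2 intensity in baclofen 5 day spleens had a lowest value of 8.18, a median of 8.74 and a highest value of 9.54, and baclofen 1 day spleens had 10.73, 10.31, 9.09 and 10.83. Replicate 3 of baclofen 1 day lay within the 5 day range, and the other 3 lay above it. Arrdc3 fell by 1.46 ± 0.28 on the log2 scale (SE, adjusted p = 0.028), or 2.75-fold. In vehicle the difference between the times was -0.19 (adjusted p = 0.966). Vehicle spleens had 8.68, 8.95, 8.65 and 8.98 at 5 days and 9.47, 9.08, 8.60 and 8.87 at 1 day, all within the baclofen 5 day range. Of 18 tested FoxO and nutrient stress genes Arrdc3 fell and 17 did not pass, with a median of -0.16, against 0.01 over all genes tested.

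Cirbp (chromosome 10, 80165990 to 80172786) also fell but stayed apart from vehicle. Baclofen 5 day spleens had a lowest log2 intensity of 8.91, a median of 9.54 and a highest of 10.12, and baclofen 1 day spleens had 10.69, 10.51, 10.16 and 10.75. No library of one group reached the other. The fall was 0.99 ± 0.21 on the log2 scale (SE), with adjusted p = 0.0433 in limma, beside 0.05 in vehicle (adjusted p = 0.977). Against vehicle of the same time, which shares these baclofen arrays, Cirbp was higher by 1.40 at 5 days (adjusted p = 0.00101, where 4.43% of all genes passed) and by 2.44 at 1 day (adjusted p = 5.42e-05, where 15.5% passed). Of 6 tested genes of the cold-inducible and temperature list, Cirbp was the only one that passed, and the list's median difference was -0.01 in baclofen and -0.18 in vehicle, against 0.01 over all genes tested in baclofen.

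H1f2, which encodes the linker histone H1.2, also fell. It had a lowest log2 intensity of 10.33, a median of 10.50 and a highest of 11.04 in baclofen 5 day spleens, and 11.64, 11.54, 11.07 and 11.70 in baclofen 1 day spleens. The groups did not overlap, with replicate 3 of baclofen 1 day close to the 5 day maximum. H1f2 fell by 0.90 ± 0.14 (SE, adjusted p = 0.0185), beside -0.28 in vehicle (adjusted p = 0.962), and its 3 probe sets ranged between -0.97 and -0.01. H2aw, a histone H2A gene, fell by 0.40 ± 0.08 (adjusted p = 0.0286), beside -0.16 in vehicle. Baclofen minus vehicle was 0.51 for H1f2 and -0.12 for H2aw at 1 day, and -0.11 and -0.36 at 5 days. Hmgn1, a nucleosome-binding protein, and Smarce1, a subunit of the BAF remodelling complex, fell by 0.28 and 0.27, and both were picked after their values were seen. In vehicle they differed by 0.03 and -0.02.

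Stat4, the transducer of interleukin-12 signals, and Ctla4, an inhibitory receptor of T cells, fell, and neither is in the T cell list. Stat4 had a lowest log2 intensity of 8.31, a median of 8.62 and a highest of 9.11 in baclofen 5 day spleens, and 9.53, 9.13, 9.22 and 9.40 in baclofen 1 day spleens. Its groups did not overlap, and it fell by 0.67 ± 0.13 (adjusted p = 0.028). Ctla4 fell by 0.62 ± 0.14 (adjusted p = 0.0489), again without overlap, with a baclofen 5 day median of 7.07 and baclofen 1 day values of 8.09, 7.56, 7.72 and 7.74. In vehicle these genes differed by 0.09 and 0.18 (adjusted p = 0.964 and 0.962). Against vehicle of the same time, which shares these baclofen arrays, Stat4 was higher by 0.91 and Ctla4 by 1.17 at 1 day. Both passed in limma (adjusted p = 0.000748 and 0.000274), as did 15.5% of all genes. At 5 days they differed from vehicle by 0.15 and 0.37, and neither passed (adjusted p = 0.449 and 0.113), where 4.43% of all genes did. Of 20 tested T cell genes 0 passed, the median difference was -0.08 in baclofen and 0.12 in vehicle, and the list mean was 9.15 ± 0.14 in baclofen 5 day and 9.24 ± 0.18 in baclofen 1 day. In bulk tissue, fewer cells of a type and less RNA per cell cannot be told apart.

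Xpo1, the exportin of nuclear proteins, fell by 0.63 ± 0.11 (adjusted p = 0.019), with baclofen 5 day values of 10.04 at the lowest, 10.17 at the median and 10.82 at the highest, and baclofen 1 day values of 10.82, 11.06, 10.78 and 10.87. Replicate 7 of baclofen 5 day reached the 1 day range. Neil1, a DNA glycosylase, fell by 0.57 ± 0.11 (adjusted p = 0.028) and was the gene with the smallest adjusted p in the difference between the baclofen and vehicle changes (-0.96, adjusted p = 0.156). Lrrc8d, a subunit of the volume-regulated anion channel, fell by 0.52 ± 0.08 (adjusted p = 0.0185) and kept its call in all but 1 of the 12 fits with 1 baclofen library left out. Tspoap1, a binding partner of the mitochondrial translocator protein, fell by 0.79 ± 0.15 (adjusted p = 0.027), with 6.44, 6.76 and 7.34 as lowest, median and highest in baclofen 5 day and 7.75, 7.82, 7.47 and 7.38 in baclofen 1 day. These groups did not overlap. Mybpc2, a myosin-binding protein of muscle, fell by 0.69 ± 0.15 and Slc16a6, a monocarboxylate transporter family member, by 0.49 ± 0.10. Mybpc2 was dim in vehicle, with means of 5.96 at 5 days and 5.77 at 1 day, under the brightness limit of 6.31. Its baclofen means were 6.58 at 5 days and 7.28 at 1 day, so it passed the filter through the baclofen groups. In vehicle the differences were -0.06 for Xpo1, 0.38 for Neil1, -0.02 for Lrrc8d, 0.04 for Tspoap1, 0.19 for Mybpc2 and 0.01 for Slc16a6, none past the threshold. Hddc2 and Pigo, an enzyme of GPI anchor synthesis, fell by 0.36 and 0.27, beside 0.12 and 0.12 in vehicle.

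**Figure D2:**
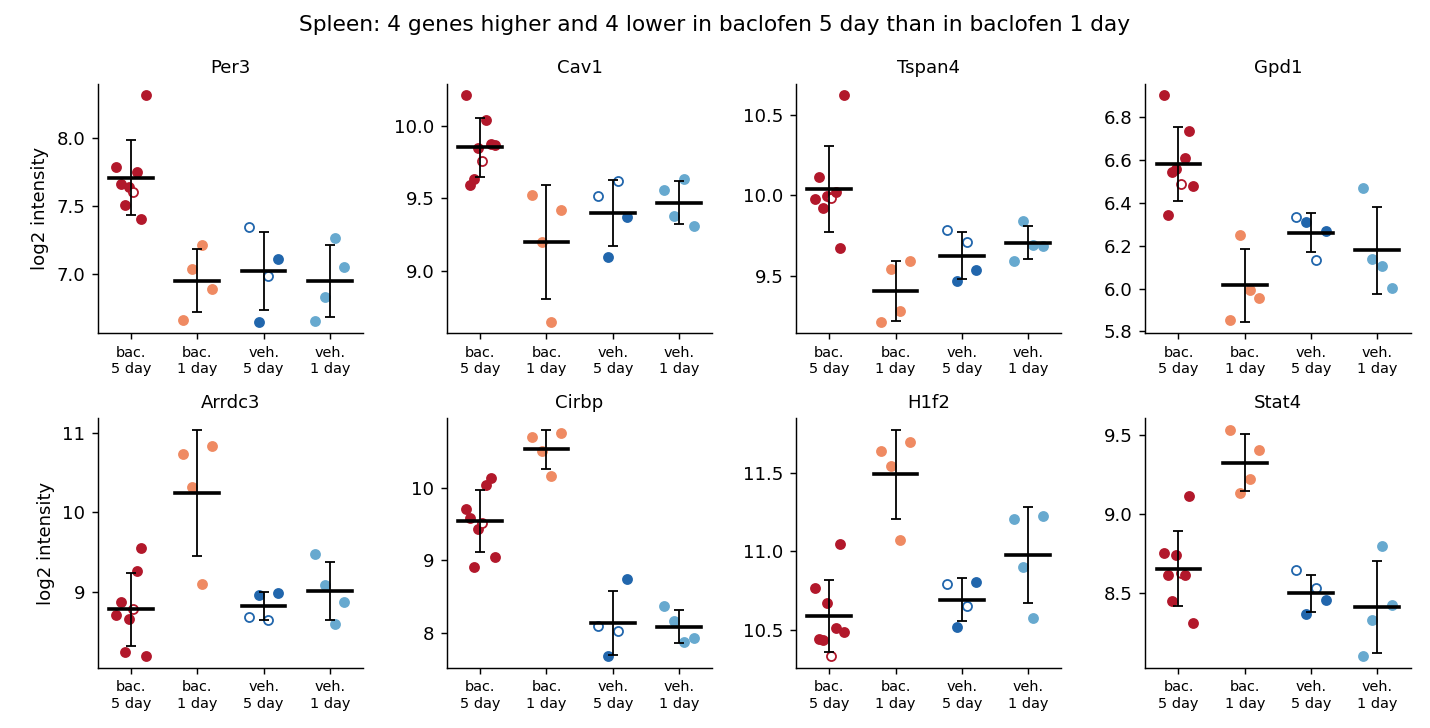
Log2 intensity (y axis) of 4 genes that rose and 4 that fell, by group (x axis). Points are libraries, lines and bars are mean and SD, and open points are the 3 libraries with liver transcripts. Cirbp values of baclofen 5 day lie between 8.91 and 10.12, below baclofen 1 day and above every vehicle library.

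Per3 (NCBI Gene 18628, chromosome 4, 150997018 to 151044707) had the largest rise among genes past the threshold. Its log2 intensity in baclofen 5 day spleens had a lowest value of 7.41, a median of 7.65 and a highest of 8.32, and baclofen 1 day spleens had 6.66, 7.04, 7.21 and 6.89. No library overlapped. Per3 rose by 0.76 ± 0.15 (SE, adjusted p = 0.0353), 1.69-fold, beside 0.07 in vehicle (adjusted p = 0.971). Vehicle values were 7.34, 6.65, 6.99 and 7.11 at 5 days and 6.65, 6.83, 7.27 and 7.05 at 1 day, all below the lowest baclofen 5 day library. All 6 probe sets of Per3 had positive differences, between 0.05 and 0.76. At 1 day Per3 differed from vehicle by 0.00, and at 5 days by 0.69 (adjusted p = 0.0171).

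Of 16 tested circadian clock genes 1 passed, Per3, and 12 had a positive difference, with a median of 0.11 in baclofen and 0.02 in vehicle, against 0.01 over all genes tested in baclofen. The PAR bZIP genes had Dbp 1.01 ± 0.32 (adjusted p = 0.142), Tef 0.54 ± 0.13 (adjusted p = 0.0591) and Hlf 0.49 ± 0.11 (adjusted p = 0.0511), none past the threshold. Nr1d2, a nuclear receptor of the clock, had 0.50 ± 0.15 (adjusted p = 0.12), while Per1 had -0.12 ± 0.17 (adjusted p = 0.791) and Arntl -0.09 ± 0.08 (adjusted p = 0.607). Dbp, Tef, Nr1d2 and Arntl were picked after their values were seen. The list mean was 7.56 to 7.84 in baclofen 5 day and 7.38 to 7.50 in baclofen 1 day.

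Cav1, the coat protein of caveolae, Tspan4, a tetraspanin, and Gpd1, cytosolic glycerol-3-phosphate dehydrogenase, rose, and marker lists of other tissues are given beside them. Cav1 had a lowest log2 intensity of 9.59, a median of 9.86 and a highest of 10.21 in baclofen 5 day spleens, and 9.53, 9.20, 8.65 and 9.42 in baclofen 1 day spleens, with no overlap. It rose by 0.65 ± 0.14 (adjusted p = 0.0479). Tspan4 rose by 0.63 ± 0.12 (adjusted p = 0.0286) and Gpd1 by 0.57 ± 0.10 (adjusted p = 0.019), both without overlap. In vehicle Cav1 differed by -0.07, Tspan4 by -0.08 and Gpd1 by 0.08, none past the threshold. Gpd1 was dim: its mean log2 intensity was 6.58 in baclofen 5 day, 6.01 in baclofen 1 day, 6.26 in vehicle 5 day and 6.18 in vehicle 1 day, so baclofen 5 day was the one group above the brightness limit of 6.31. With no brightness filter its adjusted p was 0.0219.

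Cav1 stands in the mesothelium list, whose 7 tested genes all had positive differences with a median of 0.65 (-0.14 in vehicle), 1 of them called. That median is the value of Cav1, and the called gene is Cav1, so neither is separate from its rise. The list mean was 6.20 to 7.19 in baclofen 5 day, against 5.68 to 6.38 in baclofen 1 day. The adipocyte list had 5 tested genes, 0 called, all positive with a median of 0.69 (-0.06 in vehicle), and a mean of 6.04 to 8.33 in baclofen 5 day against 5.79 to 6.71 in baclofen 1 day. Its member Fabp4, a fatty acid binding protein, differed by 2.00 ± 0.55 (adjusted p = 0.0967) and Car3, a carbonic anhydrase of fat, by 3.79 ± 1.16 (adjusted p = 0.131). In vehicle Fabp4 differed by -0.98 and Car3 by 0.32. Of the genes with a probe set, 5 of 9 adipocyte and 7 of 11 mesothelium genes passed the brightness filter. That filter used the mean of all 20 spleen arrays, 8 of them baclofen 5 day, so members high in that group could be favoured. The adipocyte list mean was 7.26 in baclofen 5 day, 6.11 in baclofen 1 day, 6.19 in vehicle 5 day and 6.42 in vehicle 1 day. The shared positive sign in these 2 lists is therefore no independent support for a rise. Of 18 tested endothelium genes 0 were called and 15 were positive, with a median of 0.13 (-0.09 in vehicle) and a list mean of 8.20 to 8.61 in baclofen 5 day against 8.04 to 8.23 in baclofen 1 day. Of 26 tested stroma and matrix genes 0 were called and 20 were positive, with a median of 0.10 (-0.06 in vehicle) and a list mean of 9.05 to 9.32 in baclofen 5 day against 8.85 to 9.12 in baclofen 1 day. Cyp2e1 reached 9.65 in baclofen 5 day replicate 1, where Alb was 5.45. The part of these tissues in the rises of Cav1, Tspan4 and Gpd1 was not tested.

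Cebpg, a C/EBP family member, had a lowest log2 intensity of 9.20, a median of 9.38 and a highest of 9.53 in baclofen 5 day spleens, and 8.45, 8.95, 9.27 and 8.77 in baclofen 1 day spleens, with replicate 3 inside the 5 day range. It rose by 0.51 ± 0.10 (adjusted p = 0.0353). Its vehicle means were 9.49 at 5 days and 9.47 at 1 day. Ttpal, a relative of the tocopherol transfer protein, rose by 0.63 ± 0.14 (adjusted p = 0.0489), Dennd4c, an activator of Rab GTPases, by 0.47 ± 0.09 and Msl1, a scaffold of a histone acetyltransferase complex, by 0.46 ± 0.09.

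Further rises were those of Czib by 0.45 ± 0.08, Kctd21 by 0.43 ± 0.07, Luc7l3, a splicing factor, by 0.41 ± 0.09, Zfp664 by 0.37 ± 0.08, Usp31, a deubiquitinase family member, by 0.34 ± 0.08 and Stxbp5, tomosyn, by 0.34 ± 0.07. Other probe sets of Czib, Usp31, Stxbp5, Cebpg and Gpd1 had differences of the other sign. Kctd21, Zfp664, Stxbp5, Msl1 and Czib had no overlap between baclofen 5 day and baclofen 1 day, while Luc7l3, Usp31, Dennd4c, Ttpal and Cebpg did. Brd3, a reader of acetylated histones, rose by 0.24 ± 0.05 (adjusted p = 0.0286). Zbtb7b, a factor of CD4 T cell fate, rose by 0.33 and Nfya, a subunit of the CCAAT-binding factor NF-Y, by 0.28, both picked after their values were seen. Baclofen minus vehicle for Nfya was -0.58 at 1 day (adjusted p = 0.000144 in limma) and -0.33 at 5 days (adjusted p = 0.00668). Nfya thus stayed below vehicle after 5 doses. For Zbtb7b the values were -0.49 (adjusted p = 0.000697) and -0.13 (adjusted p = 0.239). The vehicle differences of Ttpal, Dennd4c, Msl1, Czib, Kctd21, Luc7l3, Zfp664, Usp31, Stxbp5 and Brd3 lay between -0.10 and 0.26. For these genes baclofen minus vehicle at 1 day lay between -0.57 and -0.26, past the threshold for all but Czib (15.5% of all genes passed). At 5 days it lay between -0.16 and 0.08, none past the threshold (4.43% of all genes passed). Their levels after 5 doses were thus not shown to be above vehicle. Both contrasts share these baclofen arrays.

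Further called genes were picked for naming after their values were seen. Rises included Dusp11, an RNA phosphatase, by 0.31, Npepps, an aminopeptidase, by 0.30, Irf2bp1 by 0.27, B3gat3, an enzyme of proteoglycan linker synthesis, by 0.27 and Hyal2, a hyaluronidase, by 0.26. Baclofen minus vehicle at 1 day lay between -0.44 and -0.18 for these rises. All but Dusp11 passed, where 15.5% of all genes did. At 5 days it lay between -0.14 and 0.07, and none passed, where 4.43% of all genes did. Falls included Trim25, a ubiquitin ligase of antiviral signalling, by 0.37 on the log2 scale, Polr3f, a subunit of RNA polymerase III, by 0.37, Nsf, the ATPase that takes SNARE complexes apart, by 0.37 and Oga, which removes O-GlcNAc, by 0.29. For these falls baclofen minus vehicle lay between 0.28 and 0.44 at 1 day, all past the threshold. At 5 days it lay between -0.15 and 0.08, none past it. A further 6 called genes have clone symbols only, 1 higher and 5 lower.

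**Figure D3:**
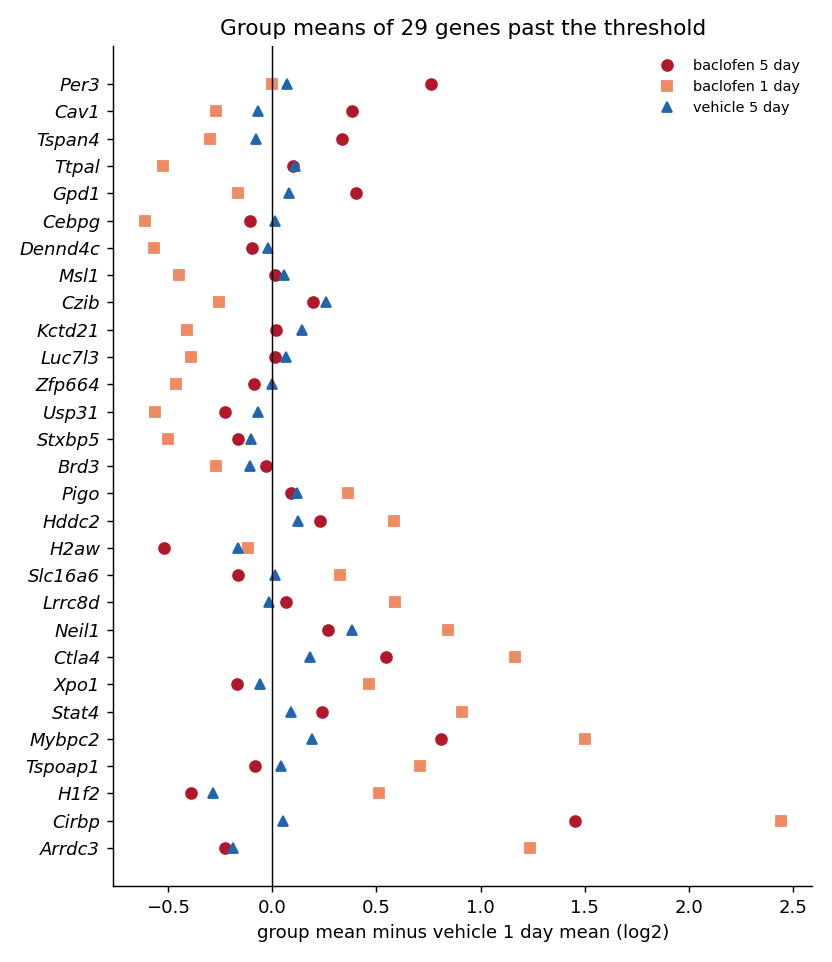
Mean log2 intensity of baclofen 5 day, of baclofen 1 day and of vehicle 5 day, each minus the vehicle 1 day mean (x axis), for the 29 genes past the threshold picked by the naming rule (y axis, ordered by baclofen 5 day minus baclofen 1 day). The baclofen 1 day mean of Arrdc3 stands 1.24 above vehicle 1 day, and the baclofen 5 day mean lies near vehicle.

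Apart from Cirbp, the genes fixed by name from earlier results of these data had no call between 5 doses and 1. Ddit4, an inhibitor of mTORC1, had a lowest log2 intensity of 9.46, a median of 10.27 and a highest of 11.19 in baclofen 5 day spleens, and 11.23, 11.40, 11.47 and 10.46 in baclofen 1 day spleens. The groups overlapped through replicate 4 of baclofen 1 day, and the difference was -0.81 ± 0.27 (adjusted p = 0.163), beside 0.08 in vehicle. Dusp1, a MAP kinase phosphatase, differed by -0.58 ± 0.21 (adjusted p = 0.201), Pik3ip1, which restrains PI3-kinase, by -0.45 ± 0.19 (adjusted p = 0.267) and Tsc22d3, a glucocorticoid-induced leucine zipper gene, by -0.20 ± 0.18 (adjusted p = 0.638). Klf9 differed by 0.08 ± 0.13 (adjusted p = 0.808). Of 25 tested glucocorticoid response genes 0 passed, with a median of -0.16 in baclofen and -0.17 in vehicle. Gabbr1, which encodes a GABA-B receptor subunit, differed by 0.18 ± 0.10 (adjusted p = 0.401).

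Of the 49 gene lists, 44 had no called member. Among 23 tested erythroid genes 22 had negative differences, with a median of -0.70 in baclofen and -0.47 in vehicle. The erythroid list mean was 8.02 at the lowest, 9.17 at the median and 10.52 at the highest in baclofen 5 day, and 9.58, 10.23, 9.80 and 9.76 in baclofen 1 day, so the groups overlapped. All 29 mitosis genes and all 30 DNA replication genes had negative differences, with medians of -0.40 and -0.24 in baclofen and -0.16 and -0.24 in vehicle, where 0 of either list were positive as well. The groups overlapped: the mitosis list mean was 7.93 to 9.53 in baclofen 5 day and 8.63 to 9.30 in baclofen 1 day, and the DNA replication list mean 8.58 to 9.87 in baclofen 5 day and 9.06 to 9.58 in baclofen 1 day. Tmcc2, of the erythroid list, differed by -1.58 ± 0.55 (adjusted p = 0.186). All 16 tested mature neutrophil genes were positive, with a median of 0.34 in baclofen and -0.21 in vehicle, and the list mean was 7.77 to 9.27 in baclofen 5 day against 8.08 to 8.32 in baclofen 1 day.

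**Figure D4:**
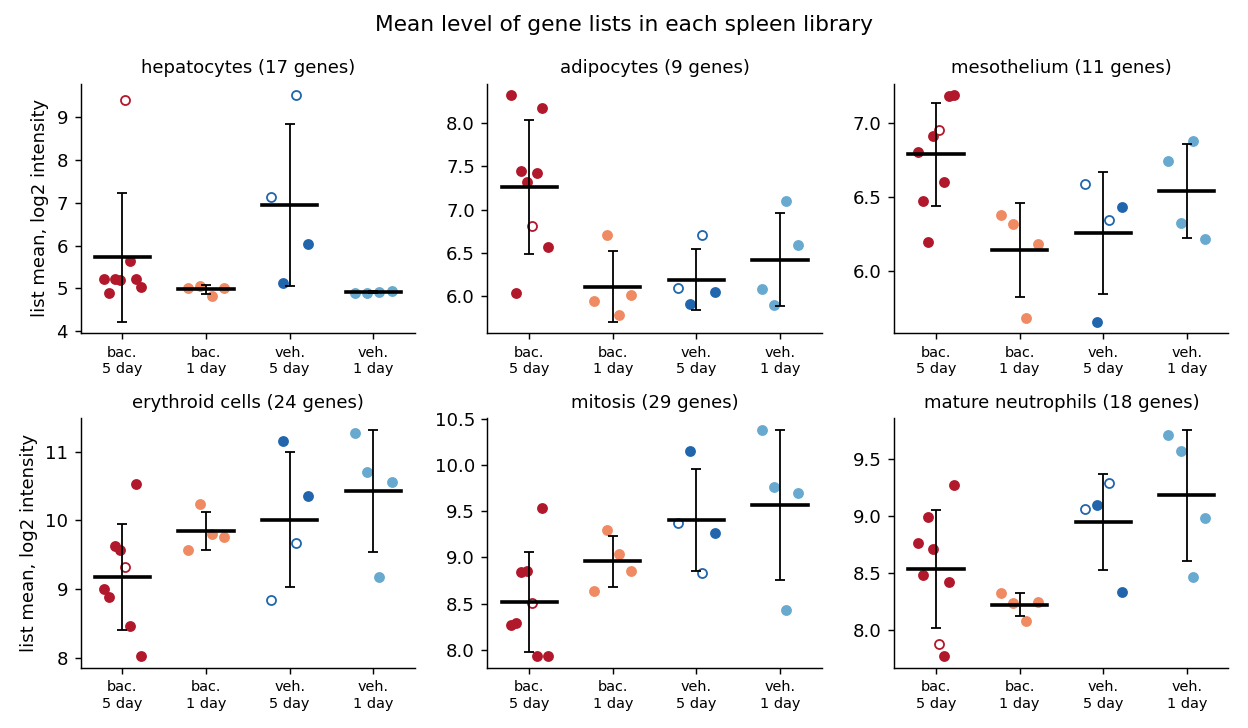
Mean log2 intensity of 6 gene lists (y axis) by group (x axis); points are libraries, lines and bars are mean and SD, and open points are the 3 libraries with liver transcripts. The adipocyte mean reaches 8.33 in baclofen 5 day, and baclofen 1 day lies between 5.79 and 6.71.

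Vehicle spleens gave no call between 5 days and 1 day: limma called 0 of 10916 genes (0%), with 378 at unadjusted p under 0.05 (3.46%). The test of the baclofen change minus the vehicle change also called 0 genes, with 858 at unadjusted p under 0.05 (7.86%). The 57 genes are therefore not shown to differ from the vehicle change. Group sizes differ, with 8 and 4 arrays in baclofen and 4 and 4 in vehicle. The 29 genes of the naming rule had vehicle differences between -0.28 and 0.38.

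**Figure D5:**
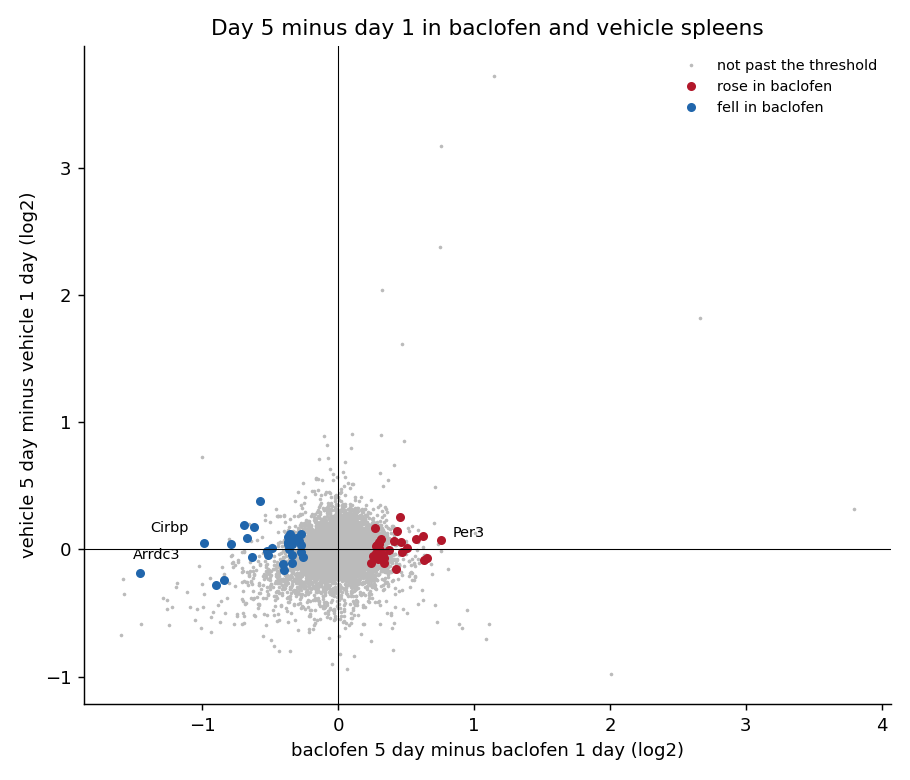
Baclofen 5 day minus baclofen 1 day (x axis, log2) against vehicle 5 day minus vehicle 1 day (y axis, log2) for 10916 genes, with the 27 genes that rose and the 30 that fell in baclofen coloured. Arrdc3 lies at -1.46 in baclofen and -0.19 in vehicle.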

How the data were processed

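The series matrix holds the authors' deposited intensity values, made by RMA per the submitters' processing notes, on a linear scale. Which tissues were normalized together is not given in the sources used here. The 20 spleen arrays had medians of 74.3 to 77.6, and log2 was taken with no further normalization. An array has no count behind its values, and precision is set by how many arrays there are.

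Of 45101 probe sets, 64 are controls. Those with 1 gene symbol (34945) were kept, and 932 with several and 9160 with none were left out. The brightest probe set stood for each of 18193 genes, and the 10916 genes at or above the 40th percentile were tested with limma 3.58.1 in R 4.3.3 (lmFit and eBayes, 4 groups, Benjamini-Hochberg). The fit was tested on simulated data. These had independent normal values for each gene and no outlying libraries. They cannot show how calls depend on single libraries. Coordinates and promoters are RefSeq's of GRCm38.p6.

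Genes named are the 15 largest rises and 15 largest falls, up to 4 called members of each of 49 lists or else 2 members with the largest differences, the 10 genes with the smallest p in the other contrasts, and 8 measured genes fixed by name; clone symbols are counted only, and not all are named. The genes and lists were chosen with earlier results of these data known. Some further called genes, outside this naming rule, were named after their values were seen. Of 883 list genes 693 were tested. Alternatives covered filter, probe set, normalization, eBayes options, weights, covariate, block, thresholds and left-out libraries. Leaving out baclofen 5 day replicates 7 and 8, or each vehicle library, was added after seeing the data.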

Additional observations from a re-analysis of the deposited data

Results flagged for a closer look

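In 7 of 86 groups checked, 1 library lay far from the rest of its group; chance flags about 1 in 20 such groups. Baclofen 5 day replicate 8 had a Per3 log2 intensity of 8.32, against 7.41 to 7.79 in the other libraries of the group. The same library had a Tspan4 value of 10.62, against 9.67 to 10.11, and a Neil1 value of 7.47, against 7.71 to 7.90. It also had the largest difference between 3 prime and 5 prime control probe sets of the spleen arrays, 0.55. Baclofen 5 day replicate 7 had a Ttpal value of 8.20, against 8.43 to 8.64, an Xpo1 value of 10.82, against 10.04 to 10.38, and a Slc16a6 value of 9.48, against 8.91 to 9.12. The hepatocyte list mean of baclofen 5 day replicate 5 was 9.41, against 4.88 to 5.64.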

How the results depend on the processing

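The 57 calls became 33 with no brightness filter, 137 after quantile normalization, 1209 with array weights, 14 with the difference between 3 prime and 5 prime control probe sets as a covariate and 13 with a minimum 1.5-fold change. Limma called 0 without the 3 libraries that carry liver transcripts (1606 at unadjusted p under 0.05), 0 with only the 12 baclofen arrays (2144) and 0 at adjusted p under 0.01 (1618). With 1 library left out the count was 1 to 202. The cause of these moves was not tested. With the replicate number as a block it was 24; same-numbered baclofen 5 day and 1 day libraries had deviations correlated at 0.14, -0.29, 0.10 and -0.31, so the numbers were not taken to pair samples. Vehicle gave 0 calls in every fit run, and the difference of the changes gave 0 except with array weights (33). Over the 29 genes of the naming rule the median size stayed between 0.47 and 0.55, and of 686 gene and setting pairs 374 kept the call, 312 lost it and 0 changed sign. These genes were picked by their calls in the same arrays, so the unchanged signs are no independent support.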

Other observations

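The genes below are described in no comparison above, and none passed the threshold in limma. Bcl2l1, an inhibitor of apoptosis, differed by -0.77 ± 0.20 (adjusted p = 0.0702) between baclofen 5 day and baclofen 1 day. Its groups did not overlap, as was so for 2.48% of all genes tested. Bbc3, which encodes the pro-apoptotic PUMA, differed by -0.46 ± 0.12 (adjusted p = 0.0666), also without overlap. Of 12 tested BCL2 family genes 0 passed, with a median of -0.09 in baclofen and -0.0007 in vehicle. Of 18 tested p53 targets 0 passed, with a median of -0.06 in baclofen and 0.04 in vehicle. Rsad2, the interferon-induced viperin, had 10.40 at the lowest, 11.85 at the median and 12.53 at the highest in baclofen 5 day, and 13.08, 13.12, 13.01 and 12.59 in baclofen 1 day (difference -1.19 ± 0.35, adjusted p = 0.12). Of 24 tested interferon response genes 0 passed and 18 had negative differences, with a median of -0.10 in both baclofen and vehicle. Pde3b, a cAMP phosphodiesterase, differed by -0.54 ± 0.13 (adjusted p = 0.0615). Dcn, the matrix proteoglycan decorin, differed by 0.62 ± 0.19 (adjusted p = 0.137), with no overlap.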
